A study of Danio rerio with 8 samples.

Results

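The transcripts examined here are commonly used as markers of Müller glia, and they were followed in sorted cells of the adult zebrafish retina. They are *gfap*, *vim*, *glula*, *glulb*, *apoeb*, *cahz*, *aqp1a.1* and *sox2*, and each was taken by its gene name in the authors' annotated table. They make up 8 of the 33737 gene IDs counted, and 7 of them were among the 12564 genes with enough counts to be tested. The libraries came from 4 fish of the *xops:eGFP* line, in which eGFP in rods is driven by a rod opsin promoter from *Xenopus*. From each dark-adapted adult, both retinas were digested with trypsin and papain, and the cells were sorted by FACS into GFP+ (rod) and GFP- (non-rod) cells, giving 4 libraries of each population in 4 pairs. All fish carried the transgene, and none was injured. The GFP- population is everything else in the dissociated retina, so Müller glia are 1 of many cell types in it.

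Müller glia are the radial glia of the vertebrate retina. They span its whole thickness, wrap the cell bodies of rods and cones, take up glutamate and potassium, move water and acid equivalents, and recycle retinoids for cones. In zebrafish they also divide, both to feed the rod lineage in the growing retina and to replace neurons after injury.

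All 8 transcripts had at least 1 count in each of the 8 libraries. The 7 tested ones were fitted lower in GFP+ cells, at 30.9% to 74.7% of their GFP- level, and 0 of them passed a false discovery rate (FDR) under 0.01 in edgeR's quasi-likelihood test, paired by fish, which is the test behind every FDR given with a standard error (SE) below. The carbonic anhydrase transcript *cahz* was the 1 transcript that passed an FDR under 0.05. Over all 12564 genes, 5.68% were lower and 3.13% higher in GFP+ cells at an FDR under 0.01, and 9.57% were lower and 5.6% higher at an FDR under 0.05, so that 1 of 7 is close to the background. At an unadjusted p under 0.05, 4 of the 7 were lower, as were 15.8% of all genes. DESeq2 gave 0 lower at an FDR under 0.01, where 7.59% of all genes were lower, and 3 at an FDR under 0.05, where 11% were lower. The median fitted log2 fold change was -0.98 over the 7 transcripts and -0.02 over all genes tested. The eighth transcript, *sox2*, had too few counts to be tested. In bulk libraries such as these, fewer cells of a type and less RNA per cell cannot be told apart.

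The sorted populations differed in the direction that their labels call for, but each also held transcripts of the other. All 19 tested rod IDs were higher in GFP+ cells and 18 of 20 tested cone IDs were lower, at an FDR under 0.01 in each case. The rod list summed to 43528 to 75721 CPM in GFP+ libraries, and to 3442, 5123, 15821 and 14338 CPM in GFP- libraries of fish 1 to 4. Rod transcripts were thus higher in the GFP- libraries of fish 3 and 4. The cone list summed to 6536 to 9893 CPM in GFP+ and 28937 to 55563 CPM in GFP- libraries. A GFP+ library held 1722055 to 2206479 counts on genes, and a GFP- library 1865121 to 2514874. Levels are given as CPM, the counts scaled to a common library size after TMM normalization, and 1 count was worth 0.315 to 1.04 CPM. Mitochondrial genes took 12.4% to 39.3% of the counts in GFP+ libraries and 25.0% to 66.1% in GFP- libraries, with the highest share in the GFP- library of fish 3. CPM is not corrected for transcript length, so levels are compared mainly between libraries. Where transcripts or lists are set beside each other below, or 1 is called the most abundant, the counts and CPM also reflect transcript length.

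**Figure D1:**
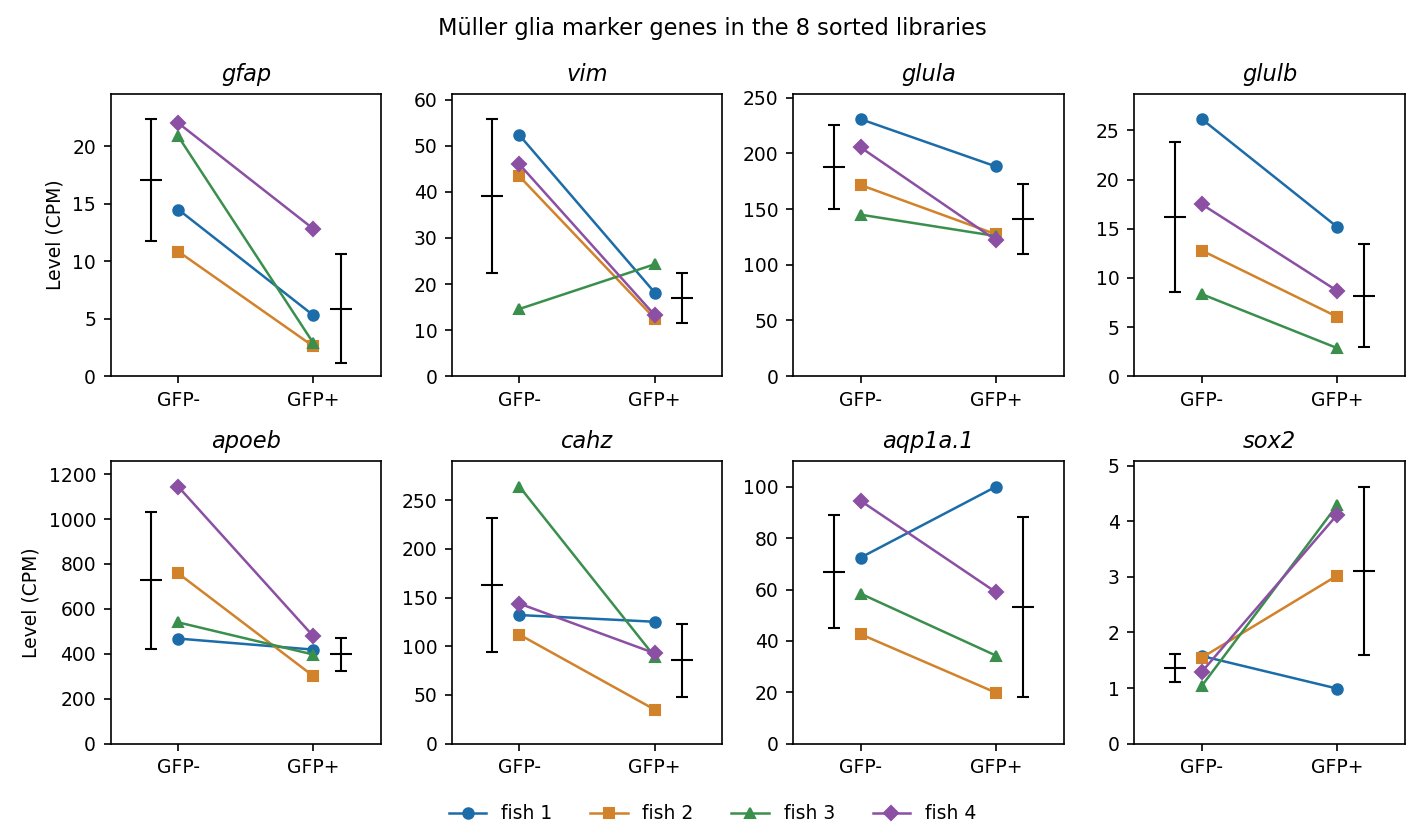
Level of each of the 8 Müller glia marker transcripts in CPM (vertical axis, starting at 0, with its own range per panel) in GFP- and GFP+ libraries. Lines join the 2 libraries of 1 fish and black bars give the mean ± SD over 4 libraries. The GFP+ and GFP- values overlap for every transcript, and the lines fall in all 4 fish for *gfap*, *glula*, *glulb*, *apoeb* and *cahz*.

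The intermediate filament transcripts were the ones with the lowest fitted levels in GFP+ cells relative to GFP- cells. The transcript *gfap* (ENSDARG00000025301, Zv9 chromosome 3 from 31929417 to 31941457, reverse strand) encodes glial fibrillary acidic protein, the filament protein of astrocytes and radial glia. It was at 5.28, 2.59, 2.86 and 12.8 CPM in GFP+ cells of fish 1 to 4, and at 14.5, 10.8, 20.9 and 22.0 CPM in their GFP- libraries. These are small numbers of reads, 54 counts in all 4 GFP+ libraries together and 128 in the GFP- libraries. Every fish had less *gfap* in GFP+ cells, but the GFP+ library of fish 4 lay above the GFP- library of fish 2, so that the populations overlapped. The mean was 5.88 ± 4.77 CPM (SD, n = 4) in GFP+ cells, against 17.0 ± 5.30 CPM (SD, n = 4) in GFP- cells. The fitted log2 fold change of *gfap* was -1.69 (SE 0.60, FDR = 0.0622, edgeR), which puts GFP+ cells at 30.9% of the GFP- level with a 95% interval from 13.0% to 73.6%.

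The transcript *vim* (ENSDARG00000010008, Zv9 chromosome 24 from 33381611 to 33398137, forward strand) encodes vimentin, the filament protein that Müller glia share with endothelial, mural and immune cells. Its levels were 18.2, 12.5, 24.3 and 13.3 CPM in GFP+ cells of fish 1 to 4, compared with 52.3, 43.4, 14.6 and 46.0 CPM in the GFP- libraries. Fish 1, 2 and 4 were alike, with GFP+ cells at 28.8% to 34.7% of the GFP- level, whereas in fish 3 GFP+ cells were at 166%. The difference in fish 3 rests on 34 counts in the GFP+ and 14 counts in the GFP- library. With all fish, the fitted log2 fold change of *vim* was -1.18 (SE 0.45, FDR = 0.0846, edgeR). Without fish 3 it was -1.67 with an FDR of 0.00545, the 1 case in which any of the 7 transcripts passed an FDR under 0.01, and over the 15 alternatives the FDR of *vim* ranged from 0.00545 to 0.758. On Zv9 *vim* lies within the span of *trdmt1*, a tRNA methyltransferase gene on the other strand, and reads on both could have been left uncounted. The overlapping *trdmt1* was between 0 and 7.77 CPM in the 8 libraries.

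Glutamine synthetase joins glutamate and ammonia into glutamine, and in the retina this step is known as a task of Müller glia. Zebrafish have a pair of genes for it. The transcript *glula* (ENSDARG00000069054, Zv9 chromosome 2 from 19460034 to 19463977, reverse strand) was at 188, 127, 126 and 122 CPM in GFP+ cells of fish 1 to 4. The GFP- libraries of the same fish had 231, 171, 145 and 205 CPM. Every fish was lower in GFP+ cells, by little, and the GFP+ library of fish 1 exceeded the GFP- libraries of fish 2 and 3. For *glula* the fitted log2 fold change was -0.42 (SE 0.26, FDR = 0.319, edgeR). GFP+ cells were thus at 74.7% of the GFP- level, and the 95% interval from 51.8% to 108% includes equal levels.

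The paralog *glulb* (ENSDARG00000017339, Zv9 chromosome 6 from 19951106 to 19955767, forward strand) was at 15.2, 6.04, 2.86 and 8.69 CPM in GFP+ cells of fish 1 to 4 and at 26.1, 12.8, 8.34 and 17.5 CPM in the GFP- libraries. Within fish GFP+ cells were at 34.3% to 58.1% of the GFP- level. The lowest of these values, in fish 3, rests on 4 counts in the GFP+ and 8 counts in the GFP- library. In both populations fish 1 was the highest and fish 3 the lowest, so that the values overlapped across fish. In the fit, the log2 fold change of *glulb* was -1.05 (SE 0.55, FDR = 0.231, edgeR), from 83 counts in all GFP+ and 151 in all GFP- libraries.

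The share that *glula* took of the counts on both paralogs was compared within fish. In GFP+ cells it was 94.8% ± 2.35 (SD, n = 4) and in GFP- cells 92.4% ± 1.99 (SD, n = 4). It was higher in GFP+ cells in 4 of 4 fish, by 1.21 to 3.22 percentage points. For fish 3, with the fewest counts, the share was 97.8% in GFP+ cells (95% Wilson interval 94.4% to 99.1%) and 94.6% in GFP- cells (89.6% to 97.2%), and these intervals cover counting error only. The mean difference of 2.39 percentage points had p = 0.13 in an exact two-sided sign-flip test over the 4 fish, the smallest p that 4 pairs allow, and p = 0.375 after adjustment over 3 paralog pairs. The other pairs were those of the retinaldehyde-binding protein, *rlbp1b* with *rlbp1a*, and of a brain fatty acid-binding protein, *fabp7a* with *fabp7b*. Their differences were -1.89 and 1.27 percentage points, with an exact sign-flip p of 0.75 for each, and they changed direction between fish.

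Apolipoprotein E carries lipids between cells and is made by Müller glia, and in zebrafish the transcript *apoeb* is also widely used as a marker of microglia. The gene (ENSDARG00000040295) lies on Zv9 chromosome 16 from 26200037 to 26202754 on the forward strand. Levels of *apoeb* were 419, 300.4, 397 and 478 CPM in GFP+ cells of fish 1 to 4 and 468, 758, 540 and 1144 CPM in the GFP- libraries. The GFP+ libraries were close to each other, at 398 ± 73.7 CPM (SD, n = 4), whereas the GFP- libraries spread widely, at 727 ± 304 CPM (SD, n = 4). GFP+ cells had less *apoeb* in every fish, from 89.5% of the GFP- level in fish 1 to 39.6% in fish 2. For *apoeb* the fit gave a log2 fold change of -0.80 (SE 0.27, FDR = 0.0508, edgeR), or 57.4% of the GFP- level with a 95% interval from 38.7% to 85.1%.

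The list of microglia and macrophage transcripts moved much further than *apoeb*. Of its 18 tested IDs 15 were lower in GFP+ cells at an FDR under 0.01, with a median log2 fold change of -4.53. The summed level of the 21 IDs in the list lay between 48.6 and 267 CPM in GFP+ libraries and between 1876 and 4765 CPM in GFP- libraries. Of these IDs 5, among them *mpeg1*, were at 0 in all GFP+ libraries, and 2 of the 5 were at 0 in all GFP- libraries as well. The list summed to 443, 619, 68 and 268 counts in GFP+ cells of fish 1 to 4, and *apoeb* had 1268, 696, 555 and 1045 counts there. In GFP- cells of fish 1 to 4 the list summed to 1876, 4765, 2455 and 3040 CPM. Fish 1 was the lowest for both the list and *apoeb*, whereas the highest was fish 2 for the list and fish 4 for *apoeb*. The part of microglia in the level of *apoeb* was not tested.

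Carbonic anhydrase interconverts carbon dioxide and bicarbonate, and aquaporin 1 is a water channel. Both kinds of protein serve acid-base and water transport in Müller glia, and both are also known from erythrocytes. The carbonic anhydrase transcript *cahz* (ENSDARG00000011166, Zv9 chromosome 2 from 29192215 to 29200240, reverse strand) was at 125, 35.0, 89.3 and 92.8 CPM in GFP+ cells of fish 1 to 4 and at 132, 112, 264 and 144 CPM in the GFP- libraries. All fish were lower in GFP+ cells, but unequally, at 94.8% of the GFP- level in fish 1 and at 31.2% and 33.9% in fish 2 and 3. The fitted log2 fold change of *cahz* was -0.98 (SE 0.30, FDR = 0.0299, edgeR). GFP+ cells were at 50.9% of the GFP- level, with a 95% interval from 33.0% to 78.4%. The FDR of *cahz* rose to 0.195, 0.163 and 0.072 without fish 2, 3 and 4, to 0.213 without the fish as a block and to 0.245 without scaling factors, and over all 15 alternatives it lay between 0.0112 and 0.245.

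The aquaporin transcript *aqp1a.1* (ENSDARG00000023713, Zv9 chromosome 2 from 2888643 to 2900295, forward strand) was at 100.0, 19.9, 34.3 and 59.0 CPM in GFP+ cells of fish 1 to 4. In the GFP- libraries it was at 72.5, 42.6, 58.4 and 94.5 CPM. Fish 1 had more *aqp1a.1* in GFP+ cells, at 138% of the GFP- level, whereas fish 2, 3 and 4 had less, at 46.6% to 62.4%. The GFP+ library of fish 1 was the highest of all 8. For *aqp1a.1* the fit gave a log2 fold change of -0.50 (SE 0.32, FDR = 0.357, edgeR), and its 95% interval from 44.4% to 113% of the GFP- level includes equal levels. Without fish 1 the log2 fold change was -0.86 and the FDR remained above the threshold, at 0.182.

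Erythrocyte transcripts were nearly absent from GFP+ cells. The summed level of the 10 IDs of that list was 0.715 to 12.5 CPM in GFP+ libraries and 106 to 354 CPM in GFP- libraries, with a median log2 fold change of -6.27 over the 6 tested. Of the 10 IDs, 4 were at 0 in all GFP+ libraries, and 1 of the 4 was at 0 in all GFP- libraries as well. In GFP- cells of fish 1 to 4 the list summed to 262, 125, 106 and 354 CPM. Both the list and *aqp1a.1* were highest in fish 4 and next highest in fish 1, whereas *cahz* was highest in fish 3, where the list was lowest. The part of erythrocytes in the levels of *cahz* and *aqp1a.1* was not tested. Aquaporin 1 is also known from endothelium. The summed level of the 11 endothelial IDs was 32.2 to 78.9 CPM in GFP+ and 65.7 to 163 CPM in GFP- libraries, and its part in the level of *aqp1a.1* was not tested.

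The transcription factor *sox2* (ENSDARG00000070913, Zv9 chromosome 22 from 40333602 to 40335673, reverse strand) maintains progenitor identity and stays on in Müller glia and in some amacrine cells of the mature retina. It had 3, 7, 6 and 9 counts in GFP+ cells of fish 1 to 4 and 5, 4, 1 and 2 counts in the GFP- libraries. These counts correspond to 3.10 ± 1.52 CPM (SD, n = 4) in GFP+ cells, against 1.37 ± 0.250 CPM (SD, n = 4) in GFP- cells. Unlike the other members *sox2* had more in GFP+ cells in fish 2, 3 and 4 and less in fish 1. An exact two-sided sign-flip test on the log2 ratios of *sox2* gave p = 0.25. When no filter was applied, the fitted log2 fold change of *sox2* was 0.95 with a standard error of 1.30 (edgeR quasi-likelihood FDR = 0.866), and a difference was not detectable at this depth.

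**Figure D2:**
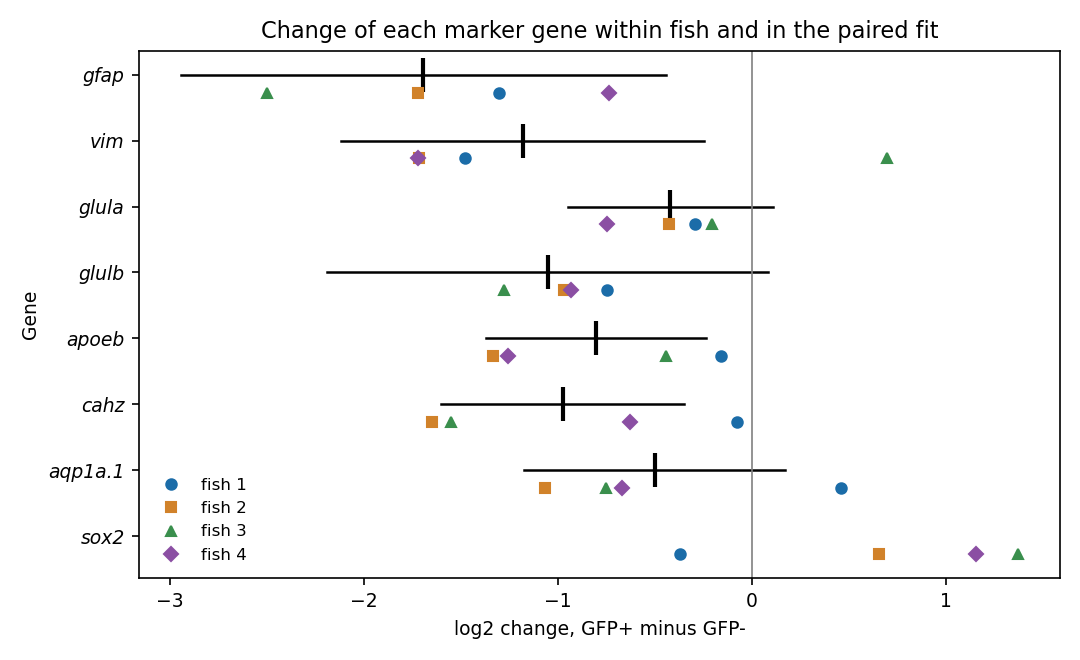
Change of the 8 marker transcripts on the log2 scale (horizontal axis, GFP+ minus GFP-). Colored symbols give each fish, as the log2 ratio of CPM + 1; vertical ticks and lines give the fitted log2 fold change and its 95% interval for the 7 tested transcripts. All fitted changes are below 0, from -1.69 for *gfap* to -0.42 for *glula*, and symbols above 0 are seen for *vim* in fish 3, *aqp1a.1* in fish 1 and *sox2* in fish 2, 3 and 4.

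The fish differed in how far the transcripts changed. The log2 ratio of CPM + 1 in GFP+ to that in GFP- cells had a median over the 7 tested transcripts of -0.29 in fish 1, -1.33 in fish 2, -0.75 in fish 3 and -0.74 in fish 4. For *apoeb*, *cahz* and *aqp1a.1* fish 1 had the ratio nearest to 0 or above it, and fish 2 had the lowest. The same was not seen for the filament transcripts, since *gfap* was lowest in fish 3 and *vim* highest there. The cone list was lower in all 4 fish, with medians of -2.35, -2.98, -2.07 and -2.03 in fish 1 to 4, so that fish 2 was again the lowest but fish 4 the nearest to 0. In the GFP+ library of fish 1 mitochondrial genes took 12.4% of the counts, the lowest share of the 8 libraries.

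The titles of fish 3 and 4 carry a suffix whose meaning is not given, and the change between populations was compared between the fish with and without it. The study used both sexes, and the labels do not give the sex of the fish, so the suffix and sex cannot be told apart here. In its comparison by sex, the paper lists the premelanosome protein transcript *pmela* as present in rods of males and absent from those of females. Here the log2 difference in change of *pmela* (suffix minus no suffix) was 14.99, with an FDR of 0.0269 in edgeR's quasi-likelihood test. The standard error of this value was larger than that of any of the 7 transcripts, so its size is imprecise. The other transcripts of the paper's comparison by sex are not given here, and whether the suffix marks sex was not tested. The difference in change was not significant for any of the 7 transcripts in edgeR's quasi-likelihood test. At an FDR under 0.05 there were 0 of the 7, against 0.167% of all genes. At an unadjusted p under 0.05 there were also 0, against 764 of all 12564 genes. For 7 transcripts, 0 is close to the background in both cases. The difference (suffix minus no suffix) was 1.04 for *vim* with a standard error of 0.87, and between -0.45 and 0.06 for the other 6. In simulated data this comparison recovered 5% of interactions of 4-fold and 0% of 2-fold at an FDR under 0.01. Differences of such a size could have been missed. The simulation changed 100 genes at each fold, drawn over all levels, and recovery was counted only at that FDR. These shares therefore do not give the power for the 7 transcripts.

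The transcripts whose levels followed each member most closely were found by the mean absolute difference of log2(CPM + 1), centred on each gene, over the 8 libraries. This measure describes likeness only. The difference between GFP+ and GFP- libraries is part of it, so a fold change near that of the member is partly set by the choice. The nearest to *gfap* was *sulf2b*, an extracellular sulfatase transcript, at a difference of 0.19, followed by *LPHN1* and *GCA*. Of these 3, *sulf2b* and *GCA* were lower in GFP+ cells at an FDR under 0.01, with log2 fold changes of -1.70 and -1.90. The nearest to *glula* were *mapk6*, *sec23b* and *dgkza*, at differences of 0.10 to 0.13, and the nearest to *glulb* were *s100a10b*, *pcolce2b* and *lsg1*. For *apoeb* the nearest were *si:dkey-175m17.7*, *ctdsp2* and *IP6K2 (2 of 2)*, and for *vim* they were *dock11*, *capn1a* and *pomgnt2*. The nearest to *cahz* was *jun*, a transcription factor of the immediate early response, at 0.15, followed by *cdk6* and *lama1*. The nearest to *aqp1a.1* were *gss*, *rnf14* and *MSI1 (2 of 2)*, at 0.21 to 0.25. None of the nearest transcripts of *glula*, *glulb*, *apoeb*, *vim*, *cahz* and *aqp1a.1* passed an FDR under 0.01. Over all genes 5.68% were lower at that FDR, and because of the choice these calls are not a separate result. No neighbours were sought for *sox2*, which was not among the tested genes.

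Other genes known from Müller glia were taken by function, as 6 lists with 87 matched IDs, of which 68 were tested. Of the 68, 6 were lower and 2 higher in GFP+ cells at an FDR under 0.01 (edgeR quasi-likelihood), or 14 lower and 3 higher at an FDR under 0.05. Over all genes, 5.68% were lower and 3.13% higher at an FDR under 0.01, and 9.57% and 5.6% at an FDR under 0.05. These counts, and those of each list below, are to be read against these shares. Their median log2 fold change was -0.70, compared with -0.98 over the 7 markers and -0.02 over all genes, and 54 of the 68 were fitted below 0. At an FDR under 0.01 the counts of 6 lower and 2 higher fell to 1 and 0 without fish 1 and to 1 and 0 without the fish as a block.

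The list for transport and turnover of glutamate, glutamine, glycine and GABA had 0 of 7 tested transcripts past an FDR under 0.01. The 2 lower at an FDR under 0.05 were *slc6a9*, a glycine transporter, and *slc38a3a*, a glutamine transporter, with log2 fold changes of -0.97 (SE 0.30, FDR = 0.0314, edgeR) and -0.86 (SE 0.27, FDR = 0.0337, edgeR). Of the glutamate transporters, *slc1a2a* had a log2 fold change of 0.29 and an FDR of 0.543 by edgeR. The most abundant of the list, the glutamate transporter transcript *slc1a2b*, was at 430 ± 219 CPM (SD, n = 4) in GFP+ cells, against 445 ± 73.2 CPM (SD, n = 4) in GFP- cells. Fish 1 had the highest value of *slc1a2b*, 726 CPM in GFP+ cells. The fitted log2 fold change of *slc1a2b* was -0.17 (SE 0.27, FDR = 0.76, edgeR), and it turned to 0.20 without scaling factors and to 0.02 without fish 4. Related transporters are also known from neurons and photoreceptors.

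Water, ion and acid-base handling held transcripts that changed in opposite directions. The sodium pump subunit *atp1b1a* fell from 124 ± 12.3 CPM (SD, n = 4) in GFP- to 34.7 ± 10.3 CPM (SD, n = 4) in GFP+ cells, without overlap, with a log2 fold change of -1.87 (SE 0.29, FDR = 7.97e-05, edgeR). Among the 8 transcripts called in the 6 lists, *atp1b1a* was the 1 that stayed under an FDR of 0.01 when each fish was left out. The gap junction transcript *cx43*, which encodes the main connexin of glia, was lower as well, at 28.3 ± 20.6 against 78.9 ± 12.6 CPM (SD, n = 4), with a log2 fold change of -1.78 (SE 0.39, FDR = 0.0027, edgeR). The carbonic anhydrase transcript *ca2* went the other way from *cahz*. It was at 325, 585, 366 and 316 CPM in GFP+ cells of fish 1 to 4 and at 95.8, 95.6, 164 and 243 CPM in the GFP- libraries, a log2 fold change of 1.48 (SE 0.32, FDR = 0.00201, edgeR). The call of *ca2* ended without fish 1 or fish 2 (FDR = 0.0396 and 0.0301), and that of *cx43* without fish 1, 2 or 4 (highest FDR 0.0472). At an FDR under 0.05, 3 of the 8 tested transcripts of this list were lower and 2 higher. Besides those above, *slc4a4a* was higher, with a log2 fold change of 1.14 (SE 0.32, FDR = 0.0153, edgeR). The sodium pump transcript *atp1a1b* was lower, with a log2 fold change of -0.83 (SE 0.28, FDR = 0.0465, edgeR).

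In retinoid and lipid handling 0 of 10 tested transcripts passed an FDR under 0.01 or under 0.05. The most abundant, *rlbp1a*, encodes the retinaldehyde-binding protein of Müller glia and pigment epithelium. It was at 179, 88.5, 99.3 and 110 CPM in GFP+ cells of fish 1 to 4 and at 210, 161, 176 and 204 CPM in the GFP- libraries, lower in GFP+ cells in 4 of 4 fish. The fitted log2 fold change of *rlbp1a* was -0.70 (SE 0.26, FDR = 0.0757, edgeR), a value near that of *apoeb*. In cytoskeleton, adhesion and matrix 0 of 10 tested transcripts passed an FDR under 0.01 and 2 were lower at an FDR under 0.05. The most abundant transcript of that list, the N-cadherin transcript *cdh2*, was not among the lower ones, with a log2 fold change of -0.55 (SE 0.29, FDR = 0.234, edgeR).

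Of 19 tested transcription factors and notch signalling genes, 2 were lower and 1 was higher at an FDR under 0.01. The retinal homeobox transcript *rx1* and the homeobox transcript *six3b* were lower, with log2 fold changes of -1.81 (SE 0.35, FDR = 0.000869, edgeR) and -1.44 (SE 0.29, FDR = 0.00108, edgeR). Both genes are also known from retinal neurons or their progenitors, and the paper counts *rx1* with photoreceptor genes that are not particular to rods. The call of *rx1* ended without fish 1 or 2, and that of *six3b* without fish 1 or 4. Levels of *rx1* were 472, 276, 41.7 and 44.0 CPM in GFP- libraries of fish 1 to 4. In the GFP+ libraries they were 128, 33.2, 12.1 and 32.9 CPM, lower in 4 of 4 fish. With only the suffix fish, the log2 fold change of *rx1* was -1.09 (FDR = 0.383, edgeR's quasi-likelihood test). The transcript *id2b*, which encodes an inhibitor of helix-loop-helix factors, was higher, with a log2 fold change of 2.40 and an FDR of 0.00999 by edgeR's quasi-likelihood test, just inside the threshold. It was at 57.4 and 152 CPM in GFP+ cells of fish 1 and 2 but at 6.43 and 1.83 CPM in those of fish 3 and 4, while GFP- libraries lay between 3.24 and 10.5 CPM. Without fish 1 or fish 2 the FDR of *id2b* was 0.217 or 0.421. The most abundant member of the list, *hmga1a*, had a log2 fold change of 0.34 (SE 0.25, FDR = 0.442, edgeR).

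Of 14 tested genes of the injury response, 2 were lower and 0 higher. The transcriptional repressor *tgif1* had 38, 21, 8 and 0 counts in GFP+ cells of fish 1 to 4 and 157, 176, 14 and 20 counts in the GFP- libraries, with a log2 fold change of -2.56 (SE 0.56, FDR = 0.00247, edgeR). The growth factor transcript *mdkb* had a log2 fold change of -1.83 (SE 0.45, FDR = 0.00699, edgeR). The call of *tgif1* ended without fish 1, 2 or 4, and that of *mdkb* ended when any of the 4 fish was left out. The most abundant transcript of this list, *jun*, had a log2 fold change of -0.97 (SE 0.34, FDR = 0.0546, edgeR), lower in 3 of 4 fish.

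**Figure D3:**
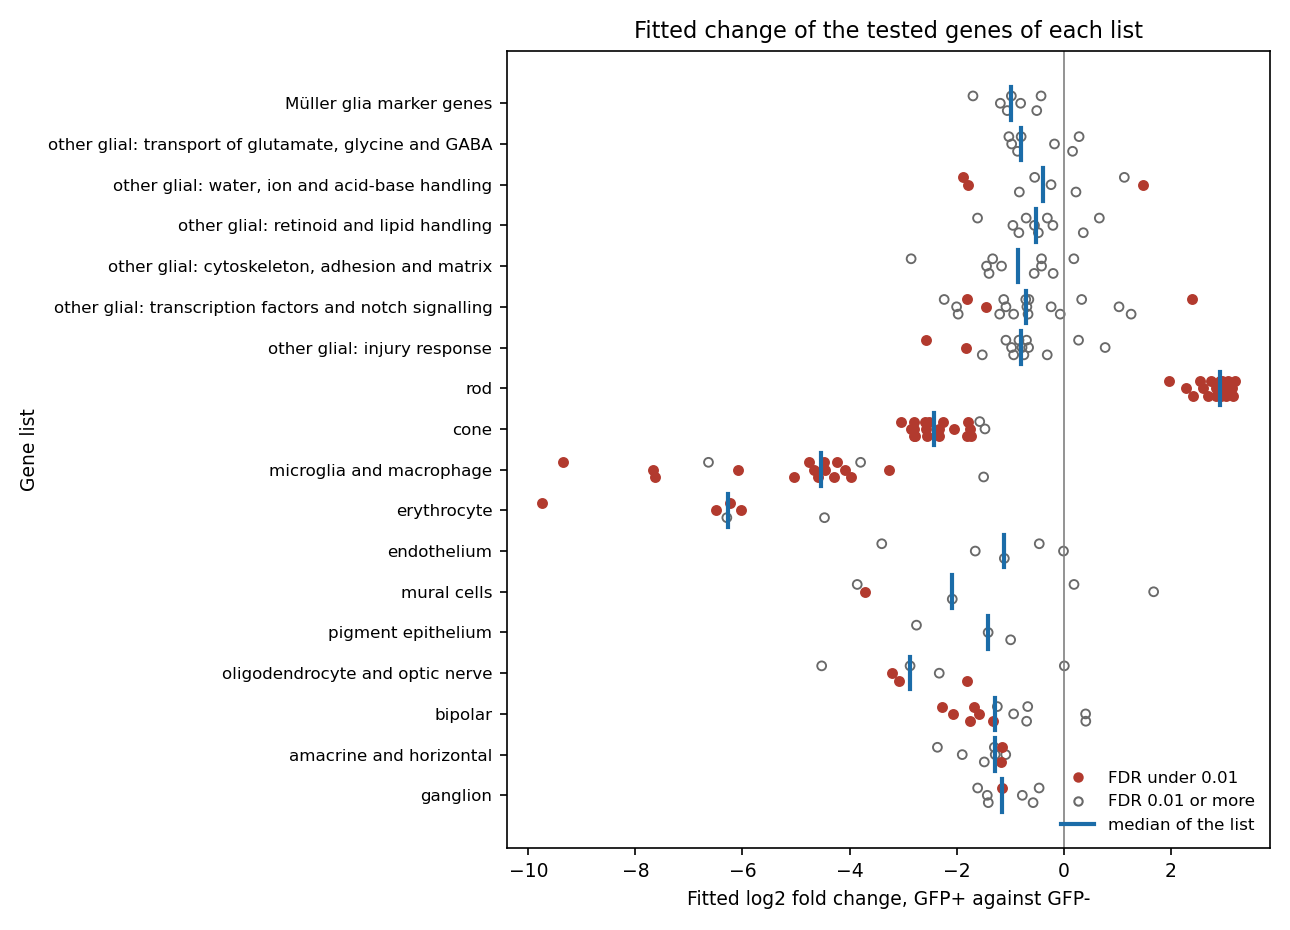
Fitted log2 fold change (horizontal axis, GFP+ against GFP-) of every tested gene in each list of cell type markers. Filled symbols passed an FDR under 0.01, open symbols did not, and blue bars give the median of each list. The 7 Müller glia markers, all open, lie around a median of -0.98, compared with medians of 2.92 for rods, -2.42 for cones and -4.53 for microglia and macrophages.

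Set beside the other cell types, the Müller glia markers were nearer to equal levels at the median than the cone, microglia and erythrocyte lists were. GFP+ cells held, at the median, 50.9% of the GFP- level of the 7 markers. For cone transcripts this value was 18.6%, for microglia and macrophages 4.32% and for erythrocytes 1.30%. The lists of inner retinal neurons lay in between, at 41.3% for bipolar cells, 41.0% for amacrine and horizontal cells and 45.3% for ganglion cells. Of the tested bipolar IDs 6 of 12 were lower at an FDR under 0.01, of the amacrine and horizontal IDs 2 of 8, and of the ganglion cell IDs 1 of 7. Nearest to the markers was the endothelial list, at 46.4% with 0 of 5 lower at that FDR. Pigment epithelium was at 37.7% with 0 of 3 lower, and mural cells at 23.7% with 1 of 5. The oligodendrocyte and optic nerve list was at 13.7% with 3 of 7 lower. The share over all genes was 5.68%. The cone, microglia and erythrocyte lists hold genes that the paper ranks among its most depleted in these same libraries, such as *opn1lw2*, *mpeg1* and *hbaa1*. The lists were also drawn up with earlier results of these data known, so their medians are not independent of those results. These are descriptions of the lists, and the differences between them were not tested.

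**Figure D4:**
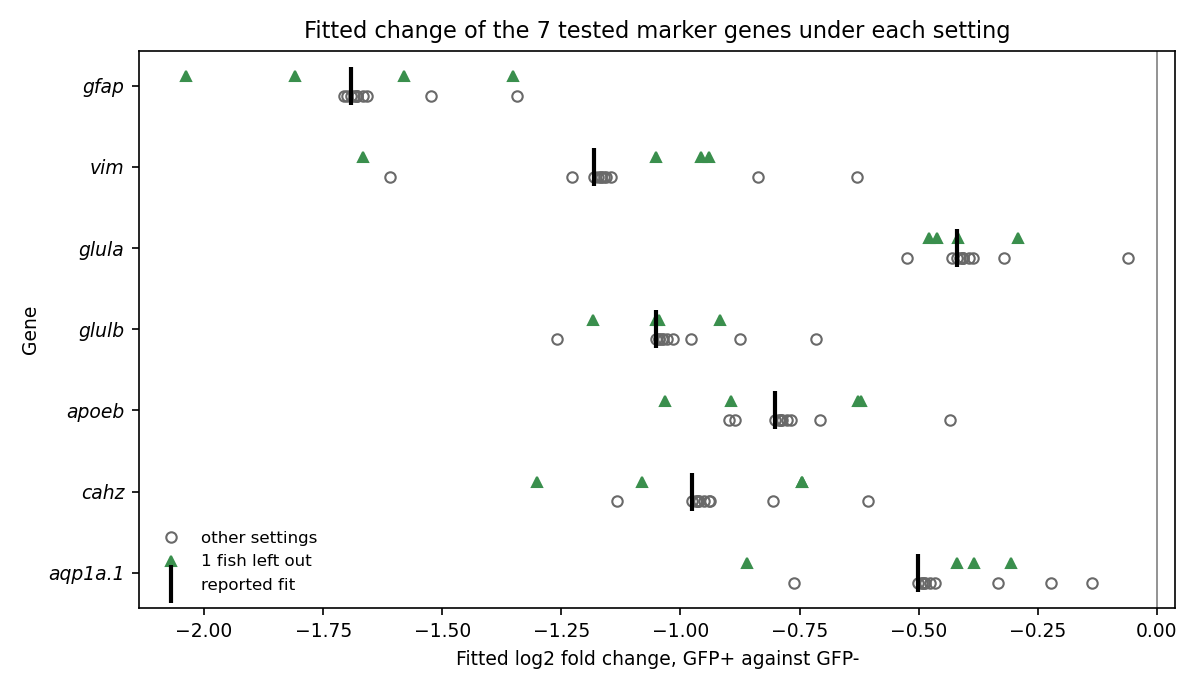
Fitted log2 fold change (horizontal axis, GFP+ against GFP-) of the 7 tested marker transcripts in the reported fit (black tick), with 1 fish left out (triangles) and under the other settings (open circles). All 105 alternative values are below 0. The values nearest to 0 are -0.06 for *glula* and -0.14 for *aqp1a.1*, both without scaling factors.

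The direction of the 7 transcripts was the same in all 15 alternative fits. These fits reuse the same counts, and the likelihood ratio test has the fold changes of the reported fit by construction, so they are not separate checks. Scaling shifted all of them together. Without TMM factors the median log2 fold change of all genes moved by 0.35, from -0.02 to 0.32, and the share of lower genes among those called at an FDR under 0.01 fell from 64.5% to 39.6%. Relative to the median of all genes the change of *gfap* was -1.67 with and -1.67 without scaling factors, that of *cahz* -0.95 and -0.93, and that of *glula* -0.40 and -0.38. In simulated data of this size the test recovered 58% of 4-fold and 2% of 2-fold changes at an FDR under 0.01. The simulation changed 100 genes at each fold, whereas 714 lower and 393 higher genes were called in the data. With fewer changed genes the same FDR is harder to reach, and the changed genes were drawn over all levels. These shares therefore do not give the power for the 7 transcripts.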

How the data were processed

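RNA-seq counts from 4 GFP+ and 4 GFP- libraries, paired by fish, were used. Amplified RNA (Ovation system) was sequenced on a MiSeq. After trimming (Sickle) and merging of read pairs (FLASH), the authors mapped the reads to Zv9 by BWA and produced the deposited counts per Ensembl gene by HTSeq, with no normalization. HTSeq's counters of unassigned reads, 34.4% to 55.3% of a library, were left out. Reads with low mapping quality, to which reads of near-identical copies would belong, were 5.84% to 9.36%. The authors also deposited a table with a normalized signal per library, from which 100% of values came out as whole reads (tolerance 0.01) equal to the counts. On these reads edgeR found 403 higher and 709 lower genes. The gene positions in that table (other values the authors deposited) are on Zv9. Its fold changes and p-values were not used. It gave symbols for 13325 IDs, a table of gene names for 10867, and 9545 had none. The lists name 110 further glial genes, of which 23 had no matching symbol.

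Counts were tested in R 4.3.3 with edgeR 4.0.16 (TMM, filterByExpr, trended dispersion, quasi-likelihood F test blocked by fish, Benjamini-Hochberg adjustment over 12564 genes). Calls used an FDR under 0.01, and under 0.05 beside it. Intervals use the standard error and the moderated degrees of freedom. DESeq2 1.42.0 was an alternative. Per-fish ratios used a pseudocount of 1 CPM. Figures used matplotlib 3.10.9 in Python 3.11.15. Pairing follows the methods, which state that both populations came from the same fish; same-fish deviations correlated at 0.324, 0.294, 0.335 and 0.215. The fit was tested on simulated data. Alternatives changed the pairing, test, tool, scaling, filter and fish.

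The members, lists and tests were chosen with earlier results of these data known. Named genes are the members, each glial list's called genes and its most abundant gene, and the 3 genes nearest to each member; other transcripts were named where a result turned on them. No sequence was used here.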

Additional observations from a re-analysis of the deposited data

Results flagged for a closer look

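One value of the 8 marker transcripts stood apart from its group. The level of *glula* in the GFP+ library of fish 1 was 188 CPM, whereas the other GFP+ libraries lay between 122 and 127 CPM. Its gap to the nearest library was 0.920 of the range of the group, above Dixon's 95% critical value for 4 samples. In the same fish *glula* was also the highest of the GFP- libraries, at 231 CPM. In all, 16 groups of 4 libraries were examined, and chance alone passes this limit in about 1 of 20 groups.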

How the results depend on the processing

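The 7 tested marker transcripts kept a negative log2 fold change in all 105 alternative values, which reuse the same counts and are not separate checks. Of these values 104 stayed on the same side of an FDR of 0.01, and the exception was *vim* without fish 3. Among the markers 0 to 1 were lower at an FDR under 0.01 when each fish was left out. The 1 marker lower at an FDR under 0.05 became 0 without a replicate block (the paired fit is the reported one), 0 without scaling factors, 0 with only the fish that carry the suffix, 4 with the likelihood ratio test, 3 with DESeq2, 2 without a filter, 2 with a filter of CPM over 1 in 4 libraries, and 0 to 1 when each fish was left out. At that FDR 9.57% of all genes were lower in the reported fit, and in the first 7 of these settings 4.17%, 5.85%, 4.07%, 12.9%, 11%, 5.47% and 8.47%. The 6 lower and 2 higher of the other glial genes became 1 and 0 without a replicate block, 0 and 0 with only the suffix fish, and 1 to 5 and 0 to 3 when each fish was left out; without scaling factors 2 were lower. At an FDR under 0.05 the 14 lower ones became 2 without a replicate block, 6 without scaling factors, 8 and 3 with only the fish without and with the suffix, and 6 to 9 when each fish was left out. Over all genes, 714 lower and 393 higher became 142 and 45 without a replicate block, 173 and 86 with only the suffix fish, and 329 to 569 and 180 to 352 when each fish was left out. The lower count was 1112 with the likelihood ratio test and 372 without scaling factors. The log2 fold change of *slc1a2b*, -0.17, turned to 0.20 without scaling factors, 0.081 with only the fish without the suffix, and lay between -0.43 (without fish 1) and 0.016 (without fish 4) when each fish was left out. The causes were not tested, and fits that leave some fish out also hold fewer fish. Depth limits *sox2*, *gfap* and *glulb* most, with 3 counts worth 0.945 to 3.13 CPM.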
